A study of Mus musculus with 49 samples.

Results

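The genes described here are 10 mouse silencing factors of retrotransposons: Trim28, Setdb1, Ehmt1, Ehmt2, Kdm1a, Mphosph8, Atrx, Daxx, Morc3 and Chaf1a. They were chosen by name, as the rows of the count tables whose Ensembl gene ID carries one of these symbols in the GENCODE annotation of the mouse GRCm38 genome, and each symbol matched 1 of the 54838 gene rows. All 10 had enough reads to be tested in both experiments. Their levels were followed in single mouse embryos at the late 2-cell stage, after acute depletion of TBP, the TATA-box binding subunit of the basal transcription machinery, or of FOXJ3, a forkhead transcription factor.

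Retrotransposons are kept silent by proteins that are brought to them by DNA sequence or by chromatin marks. KRAB zinc finger proteins bind the elements and recruit TRIM28, which gathers SETDB1 and other enzymes that place methyl groups on lysine 9 of histone H3, while the HUSH complex, ATRX with DAXX, and the histone chaperone CAF-1 maintain the compacted chromatin. In the mouse 2-cell embryo this repression is incomplete, and MERVL elements, their MT2_Mm promoters and LINE-1 are transcribed as the embryonic genome is switched on.

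Loss of function (LOF) was by Trim-Away, in which an antibody injected into the zygote is bound by the ubiquitin ligase TRIM21 and the target protein is degraded with it. The genotype is given as F1(C57BL/6JxCBA/H), and by the study's methods both parents of the zygotes were F1 animals. Zygotes were collected 17 to 18 h post-hCG, injected with antibody, cultured for 4 h, injected with mCherry-Trim21 mRNA, and collected singly at 48 h post-hCG. The 4 groups differed in the antibody: anti-TBP (TBP LOF, 9 embryos), mouse IgG (mIgG CONTROL, 10 embryos), anti-FOXJ3 (FOXJ3 LOF, 17 embryos in batches of 10 and 7) and rabbit IgG (rIgG CONTROL, 13 embryos in batches of 7 and 6). The controls thus carried TRIM21 and an antibody too, no uninjected group was used here, and the target is removed as protein, so that its mRNA does not measure the depletion. The labels say that the embryos of the TBP experiment came from 3 biological replicates, but not which embryo came from which, so that the tests measure the spread between single embryos.

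Of the 49 libraries, 47 passed the quality limits of the study (9 TBP LOF, 9 mIgG CONTROL, 16 FOXJ3 LOF and 13 rIgG CONTROL embryos), with 1103569 to 5434808 counted reads each. The 2 libraries left out, 1 of mIgG CONTROL and 1 of FOXJ3 LOF, had 464300 and 308682 reads. Late 2-cell markers were present in all 4 groups, with reads for 13 of the 13 genes found in the tables, and their summed reads-per-million level (rpm, of the reads counted to genes and TE families) ran from 338 to 823 in mIgG CONTROL and from 553 to 1484 in TBP LOF embryos. Of these 13 markers 2 were higher upon TBP LOF on the ERCC scale, Tcstv3 (773 ± 408 against 227 ± 163 normalised counts) and Usp17lc, 1 was lower, Kdm5b (-1.08, padj = 0.00589 by edgeR), and 10 were not called. With TMM scaling 6 were higher and 0 lower. Markers of cumulus cells, the somatic cells that surround the oocyte, summed to 10.9 to 38.8 rpm in TBP LOF and 17.5 to 73.9 in mIgG CONTROL embryos, with Fshr, Has2, Inha and Ptx3 at 0 in both. Of the other 4 cumulus markers 2 were lower upon TBP LOF on the ERCC scale, Amhr2 (-1.18, padj = 0.00624 by edgeR) and Tnfaip6 (-2.46, padj = 0.00865), and 0 were lower and 1 was higher with TMM scaling. The 6 oocyte transcripts summed to 1818 to 3331 rpm in TBP LOF and 726 to 2274 in mIgG CONTROL embryos, most of it from Oosp1 and Bmp15. On the ERCC scale Oosp1 stood at 0.07 (padj = 0.901) and Bmp15 at 0.69 (padj = 0.0753), and Zp3 was lower (-1.83 ± 0.34, padj = 2.3e-05 by edgeR). With TMM scaling 4 of the 6 were higher, Oosp1 at 1.01 (padj = 0.00481) and Bmp15 at 1.46 (padj = 1.5e-05) among them, and Zp3 was still lower (padj = 0.00564). Markers of the blastocyst summed to at most 37.0 rpm in any group. Counts of the TBP experiment were scaled by the ERCC spike-ins, synthetic RNAs added in equal amount to each lysate, which made up 4.29% ± 1.19 of the reads of TBP LOF and 2.76% ± 0.37 of mIgG CONTROL embryos (SD, n = 9 each). Reads of the injected mCherry-Trim21 amounted to 1327 ± 938 and 833 ± 420 rpm in the same groups. The part of the ERCC share in the results that follow was not tested apart from the other scalings given below, and that of the marker sums was not tested. For the construct, a fit with its level as covariate is given below.

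To show the sequence beside the annotated starts of these genes, the 100 bases upstream of the RefSeq start sites were searched for 5 short promoter motifs on both strands. The start sites used in these embryos were not determined. The factors had 13 annotated start sites, and none of these 13 windows held TATAAA, the core of the TATA box that TBP contacts, against 5.56% of the 32851 windows of all genes. With 13 windows, 0 matches cannot be told apart from a share this small. The GC box GGGCGG was found upstream of 6 of the 10 genes (8 of 13 windows, against 24.7% of all windows), the CCAAT box in 3 windows (18.9% of all), the ETS site CCGGAAG upstream of 2 genes, Setdb1 and Daxx (4.52% of all windows; the 2 Daxx windows that hold it overlap and share 1 site) and the YY1 motif AAGATGG in 0 (1.53% of all). None of the 5 motifs contains another. The median GC content of the 13 windows was 68%, and that of all windows 55%. The sequences of Trim28, Setdb1 and Mphosph8, which were lower upon TBP LOF, and of Atrx, which did not pass the test, are shown to let their motif content be compared (GRCm38.p6, 5′ to 3′ on the strand of the gene, capitals mark matches to the 5 motifs on either strand).
Trim28, chr7:13024052-13024151, strand +: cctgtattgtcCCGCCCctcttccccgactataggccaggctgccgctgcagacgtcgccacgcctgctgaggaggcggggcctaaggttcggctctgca
Setdb1, chr3:95357203-95357302, strand -: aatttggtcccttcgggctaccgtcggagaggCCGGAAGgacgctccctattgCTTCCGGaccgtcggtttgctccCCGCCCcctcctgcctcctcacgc
Mphosph8, chr14:56668148-56668247, strand +: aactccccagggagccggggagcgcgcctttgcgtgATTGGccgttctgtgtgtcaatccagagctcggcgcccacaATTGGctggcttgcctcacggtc
Atrx, chrX:105929373-105929472, strand -: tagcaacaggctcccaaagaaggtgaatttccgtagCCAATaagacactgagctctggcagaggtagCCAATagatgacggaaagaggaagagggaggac

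The windows of Trim28 and Setdb1 held 1 GC box each, on the reverse strand, and that of Setdb1 also 2 ETS sites. Those of Mphosph8, which passed the test, and Atrx, which did not, held 2 CCAAT boxes each. A match is a stretch of letters and was not tested as a binding site. The window of Trim28, set by its RefSeq start, lies inside the GENCODE gene, downstream of the gene start. In the GENCODE annotation of GRCm38 the genes themselves lie at chr7:12999114-13031035 (Trim28, plus strand), chr3:95323525-95357202 (Setdb1, minus strand), chr14:56668248-56697430 (Mphosph8, plus strand) and chrX:105797615-105929403 (Atrx, minus strand), and the others at chr2:24789928-24919614 (Ehmt1, minus), chr17:34898469-34914052 (Ehmt2, plus), chr4:136550540-136602723 (Kdm1a, minus), chr17:33909414-33915590 (Daxx, plus), chr16:93832121-93876073 (Morc3, plus) and chr17:56040439-56072289 (Chaf1a, plus). Genes on the opposite strand overlap Trim28 (Zbtb45), Setdb1 (Cers2, Gm37500 and Gm42578), Kdm1a (Luzp1), Mphosph8 (Gm16973), Atrx (the snRNA genes Gm23656 and Gm26020), Morc3 (Gm30881) and Chaf1a (Ubxn6), and because no source used here states whether counting was by strand, their reads cannot be told apart from those of the factors. On the same strand, Gm37139 and Gm38147 overlap Ehmt1, Gm12987 overlaps Kdm1a and Gm14853 overlaps Atrx, and strand would not separate these.

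Upon TBP LOF, 6 of the 10 silencing factors were lower than in mIgG CONTROL embryos and none was higher (edgeR quasi-likelihood test, padj under 0.05, p-values adjusted over all 19356 genes and TE families tested). Those that fell were Trim28, Setdb1, Ehmt1, Ehmt2, Mphosph8 and Chaf1a, to between 0.298 and 0.500 of their control level on the fitted scale. Kdm1a, Atrx, Daxx and Morc3 did not pass the test. The count has to be read against the whole transcriptome: 29.7% of all features tested were lower and 1.34% were higher in this comparison. Among the 8577 features with at least as many reads as Ehmt2, the silencing factor with the fewest (222 over the 18 embryos), 49.2% were lower, so that 6 of 10 was near the share of genes that were counted as well. The median log2 fold change was -1.08 over the 10 factors, -0.72 over all features and -0.90 over the 8577.

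The TRIM28 and SETDB1 arm starts at the KRAB zinc finger proteins. Trim28, which encodes the scaffold that they recruit, had normalised counts from 20.5 to 138 with a median of 45.5 in TBP LOF and from 94.8 to 223 with a median of 142 in mIgG CONTROL embryos. No LOF embryo reached the control median, and 8 of 9 stood under the lowest control embryo. The log2 fold change of Trim28 was -1.29 ± 0.32 (SE, 95% interval -1.92 to -0.65, padj = 0.00107).

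Setdb1, the enzyme for trimethylation of H3K9 that TRIM28 brings to the elements, ranged from 6.04 to 46.1 (median 27.6) in TBP LOF and from 26.8 to 81.6 (median 43.2) in mIgG CONTROL embryos. The groups overlapped, with 4 of 9 LOF embryos below the lowest control embryo and 4 of 9 control embryos above the highest LOF embryo. Its log2 fold change was -1.16 ± 0.37 (padj = 0.0124).

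Ehmt1 and Ehmt2 encode GLP and G9a, the partner enzymes that place mono- and dimethyl marks on H3K9. Normalised counts of Ehmt1 ran from 15.7 to 66.4 (median 34.4) in TBP LOF and from 58.7 to 103 (median 82.8) in mIgG CONTROL embryos. A single LOF embryo reached the range of the controls, and the log2 fold change was -1.18 ± 0.31 (padj = 0.00214). Ehmt2 was counted with few reads, from 0 to 14.8 (median 4.76) in TBP LOF and from 0 to 48.9 (median 19.98) in mIgG CONTROL embryos. No LOF embryo reached the median of the controls, yet both groups held an embryo at 0, and the fold change of -1.75 ± 0.57 on the log2 scale (padj = 0.0137) had the widest interval among the factors, from -2.88 to -0.61.

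Mphosph8, the HUSH subunit that reads methylated H3K9, was the only silencing factor whose groups did not overlap. It ranged from 9.66 to 87.7 (median 47.8) in TBP LOF and from 89.8 to 184 (median 104) in mIgG CONTROL embryos, so that the highest LOF embryo stood just below the lowest control embryo. Such a separation was seen for 6.69% of all features tested in this comparison, which include many with fewer reads than Mphosph8. Its share among the 8577 better-counted features was not computed. The log2 fold change was -1.50 ± 0.34 (padj = 0.00032).

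Chaf1a, the large subunit of the CAF-1 complex that loads histones behind the replication fork, ranged from 9.42 to 55.6 (median 27.0) in TBP LOF and from 36.6 to 95.5 (median 59.6) in mIgG CONTROL embryos. All 9 LOF embryos were below the control median, and the log2 fold change was -1.0001 ± 0.35 (padj = 0.0216). This was the call closest to the threshold: without mIgG CONTROL embryo 6 the adjusted p was 0.0519 at a fold change of -0.90, while the calls of the other 5 factors held whichever embryo was left out.

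**Figure D1:**
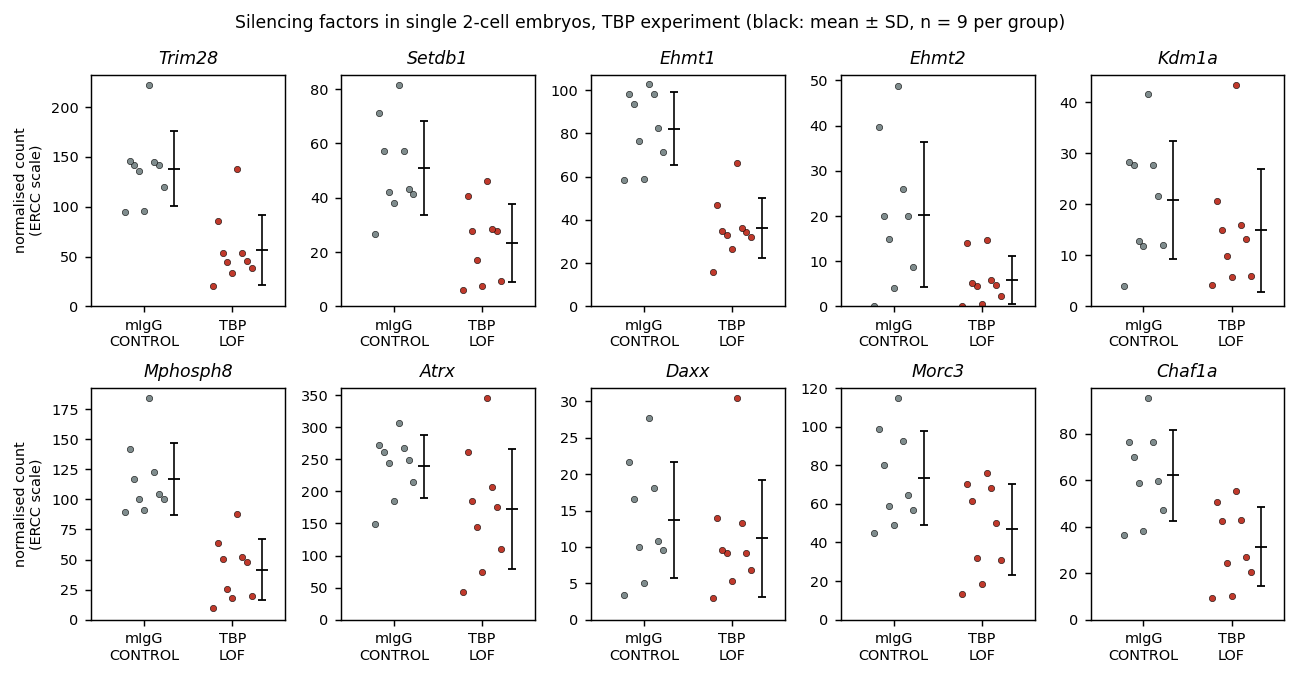
Normalised counts (ERCC scale, linear axis) of the 10 silencing factors in each of 9 mIgG CONTROL and 9 TBP LOF embryos, with points for embryos and black bars for the mean ± SD. Only for Mphosph8 do the groups not overlap, and 1 LOF embryo each stands above the rest for Kdm1a (43.4) and Daxx (30.5).

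The remaining 4 factors, Kdm1a, Atrx, Daxx and Morc3, did not pass the test. Kdm1a, which encodes the histone demethylase LSD1, had 4.29 to 43.4 (median 13.2) normalised counts in TBP LOF and 4.06 to 41.6 (median 21.7) in mIgG CONTROL embryos, with a log2 fold change of -0.52 and a 95% interval from -1.41 to 0.37 (padj = 0.420). The interval thus held both a fall larger than that of Trim28 and a small rise. Without TBP LOF embryo 10, the highest for this gene, the value was -0.94 (padj = 0.115).

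Atrx and Daxx encode the remodeller and the chaperone that deposit histone H3.3 at repeats. Atrx ranged from 43.0 to 346 (median 176) in TBP LOF and from 150 to 307 (median 248) in mIgG CONTROL embryos, with a log2 fold change of -0.48 ± 0.31 (padj = 0.255). The LOF embryos were more spread out than the controls, with 4 of 9 below the lowest control embryo and 1 above the highest. Atrx is X-linked, and the sex of the embryos is not given by the labels. Daxx, with few reads, ranged from 2.93 to 30.5 (median 9.21) against 3.37 to 27.8 (median 10.7), a log2 fold change of -0.32 with an interval from -1.29 to 0.64 (padj = 0.676). Morc3, a nuclear ATPase that works with DAXX at endogenous retroviruses, ranged from 13.2 to 76.2 (median 49.99) against 45.1 to 115 (median 64.8), with a log2 fold change of -0.67 ± 0.33 (padj = 0.127).

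**Figure D2:**
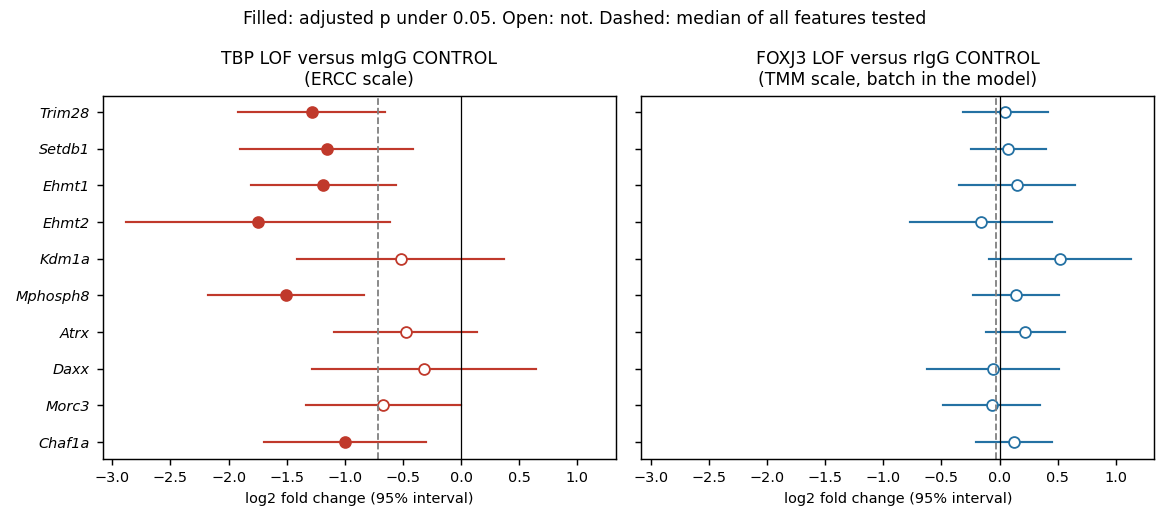
Log2 fold changes of the 10 silencing factors with 95% intervals, for TBP LOF over mIgG CONTROL (left) and FOXJ3 LOF over rIgG CONTROL (right), with filled points at padj under 0.05 and a dashed line at the median of all features tested (-0.72 and -0.03). The TBP values run from -1.75 to -0.32 and the FOXJ3 values from -0.16 to 0.52. The left panel is on the ERCC scale and the right on the TMM scale, on which the median is held near 0. With ERCC size factors the FOXJ3 median of all features was 0.14.

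The position of the factors among all genes shows how large these changes were for this experiment. Ehmt2 had the lowest fold change, at the 19.8th percentile of all features, followed by Mphosph8 at the 26.0th and Trim28 at the 32.2nd. Ehmt1, Setdb1 and Chaf1a lay at the 35.2nd, 36.1st and 40.9th percentiles. The 4 factors that did not pass lay between the 51.7th (Morc3) and the 63.2nd (Daxx) percentile. No factor stood below Ehmt2, whereas Chaf1b, the CAF-1 partner of Chaf1a, lay at the 6.93rd percentile.

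**Figure D3:**
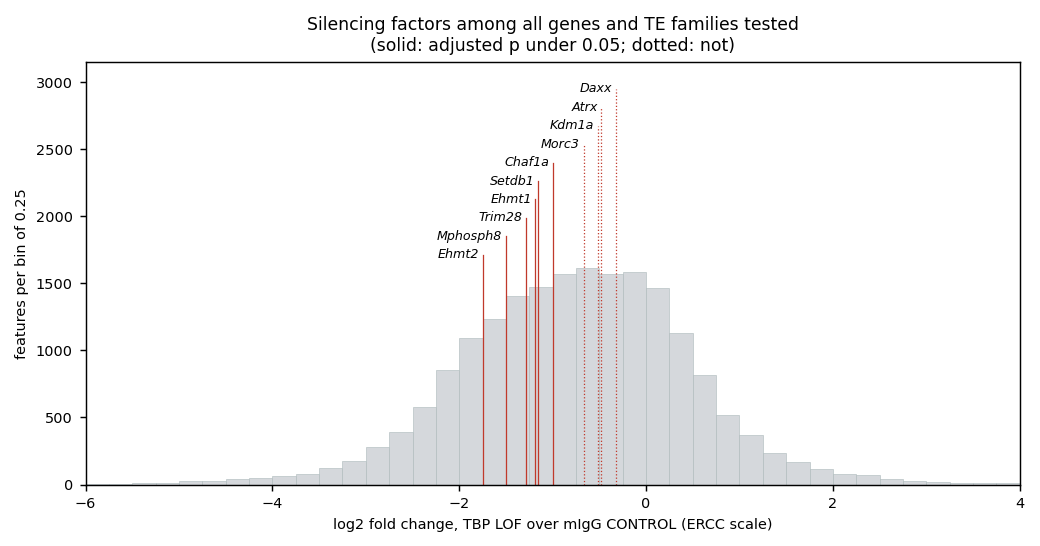
Number of genes and TE families per bin of 0.25 in log2 fold change, TBP LOF over mIgG CONTROL, for the 19356 features tested, with lines at the 10 silencing factors (solid at padj under 0.05, dotted otherwise). The factors lie between -1.75 and -0.32, inside the bulk of the distribution, on both sides of its median of -0.72.

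Most of these calls depended on the scaling. With TMM scaling, which assumes that most features do not change, the median of all features moved from -0.72 to 0.11 and the share of lower genes among those called from 95.7% to 49.6% (2451 lower and 2486 higher). Only Mphosph8 was still called among the 10 factors, at -0.75 (padj = 0.0187). Trim28, Setdb1, Ehmt1, Ehmt2 and Chaf1a then lay at -0.46, -0.33, -0.33, -0.86 and -0.20 (padj from 0.160 to 0.619), and Kdm1a, Atrx, Daxx and Morc3 changed sign to 0.30, 0.25, 0.48 and 0.16 (padj from 0.405 to 0.668). Size factors from all genes and TE families gave the same single call. The ERCC values are relative to the spike-ins added to each embryo, and the TMM values to the bulk of the features. Each library was made from a single embryo, and all embryos were collected at the same time, 48 h post-hCG. The reads do not measure the cell number, and in such a library maternal and newly made transcripts cannot be told apart. In the paper, the transcript profiles of TBP LOF embryos lay nearer to earlier stages than those of controls, and their development was delayed. The part of such a delay in the values given here was not tested.

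**Figure D4:**
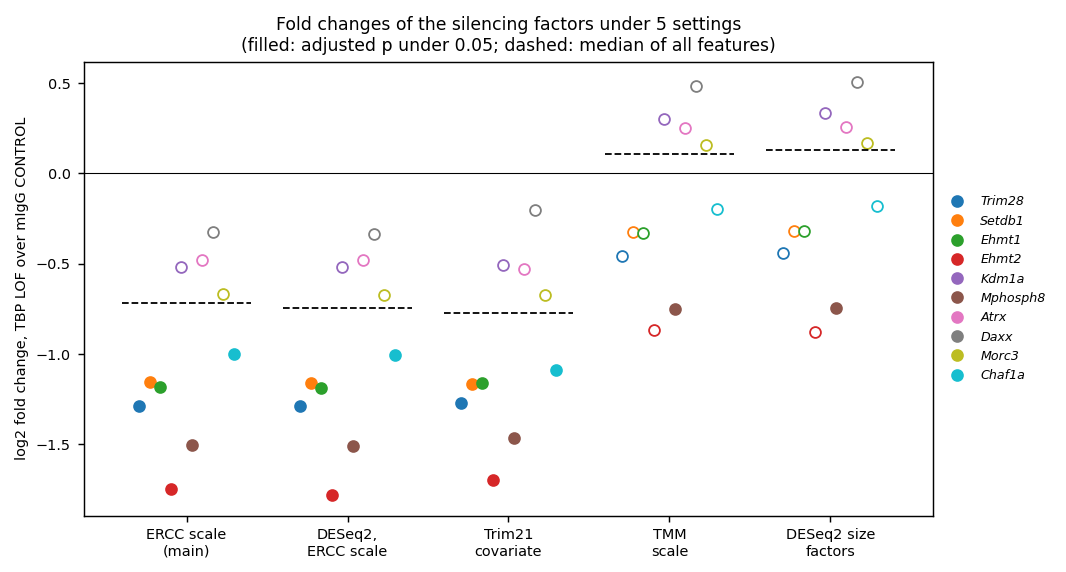
Log2 fold changes (TBP LOF over mIgG CONTROL) of the 10 silencing factors under 5 settings of the test, filled at padj under 0.05, with a dashed line at the median of all features. With ERCC scaling 6 factors are filled in each of 3 settings, and with TMM or DESeq2 size factors Mphosph8 alone; 6 factors lie below the median of all features in each setting.

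In each TBP LOF embryo, 7 to 10 of the 10 factors (median 9) were below the median of mIgG CONTROL, and all 10 were below it in 4 embryos, against 1 to 8 (median 4) in the control embryos, which set that median. On this ERCC scale the median log2 fold change of all features was -0.72, and the same count over all features was not made. ERCC reads were 4.38% to 6.12% in the 4 embryos with all 10 below. They were 4.41% in the embryo with 9, and 2.67% to 3.67% in those with 7 or 8. The part of this share was not tested. The normalised counts summed over the 10 factors ran from 151 to 743 (median 490) in TBP LOF and from 634 to 1034 (median 825) in mIgG CONTROL embryos. As a share of counted reads the factors summed to 160 to 418 rpm (median 283) in TBP LOF and 293 to 406 (median 359) in mIgG CONTROL embryos, so that 5 of 9 LOF embryos lay under every control embryo and 1 above.

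Upon FOXJ3 LOF, 0 of the 10 silencing factors passed the test (edgeR on the TMM scale with the preparation batch in the model, 16 and 13 embryos). None had an unadjusted p under 0.05, DESeq2 called 0 as well, and the adjusted p-values were 0.910 to 0.993. In all, 2 of 19517 features were lower (0.0102%) and 0 were higher (0%), 1115 having an unadjusted p under 0.05. The log2 fold changes of the factors ran from -0.16 (Ehmt2) to 0.52 (Kdm1a), with a median of 0.10 against -0.03 over all features.

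Trim28 had normalised counts from 75.1 to 263 (median 145) in FOXJ3 LOF and from 73.1 to 207 (median 129) in rIgG CONTROL embryos, and a log2 fold change of 0.05 ± 0.18. The ranges overlapped, with 2 LOF embryos above the highest control embryo. Mphosph8 ranged from 41.1 to 172 (median 91.0) and from 40.8 to 117 (median 91.8), with a log2 fold change of 0.14 ± 0.18. For both genes the 95% intervals on the TMM scale, from -0.32 to 0.42 and from -0.23 to 0.51, left out the falls seen upon TBP LOF on the ERCC scale. With TMM scaling the TBP falls given above were smaller, and also outside these intervals. The intervals do not include the error of the TBP values. In the direct test of the difference with TMM scaling, given below, Mphosph8 passed and Trim28 did not.

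Kdm1a gave the largest value of the factors in this comparison. Its counts ran from 7.20 to 39.9 (median 22.9) in FOXJ3 LOF and from 4.78 to 35.4 (median 13.0) in rIgG CONTROL embryos, and the control median exceeded 3 of the 16 LOF embryos. The log2 fold change of 0.52 ± 0.30 did not pass (p = 0.092, padj = 0.910 by edgeR's quasi-likelihood test, 95% interval -0.09 to 1.13). Within the batches it was 0.66 in batch 1 and 0.33 in batch 2. The other factors lay within -0.29 to 0.26 in batch 1 and -0.39 to 0.49 in batch 2, none of them called in either.

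To ask whether the response of the factors differed between the depletions, the FOXJ3 effect was subtracted from the TBP effect in a single model of all 47 embryos on the ERCC scale. The same 6 genes passed, with differences of -1.82 ± 0.41 for Mphosph8 (padj = 0.00032), -1.50 ± 0.43 for Trim28 (padj = 0.00532), -1.54 ± 0.46 for Ehmt1 (padj = 0.00727), -1.41 ± 0.44 for Setdb1 (padj = 0.0103), -1.34 ± 0.42 for Chaf1a (padj = 0.0107) and -1.79 ± 0.69 for Ehmt2 (padj = 0.0402). These embryos include those of the TBP comparison, so that the 2 sets of calls are not independent. In the background, 28.0% of 19657 features were lower and 0.911% higher in this difference, and 49.4% were lower among the 8288 with at least as many reads as Daxx. The remaining factors did not pass, with Atrx at -0.91 (padj = 0.061), Kdm1a at -1.20 (padj = 0.129), Morc3 at -0.81 (padj = 0.194) and Daxx at -0.46 (padj = 0.613). With TMM scaling, where 10.9% of all features were lower, only Mphosph8 passed, at -0.89 (padj = 0.0234 by edgeR).

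As a description across all 4 groups, levels were also expressed as rpm. The lowest median was that of TBP LOF embryos for all but 3 factors, the exceptions being Kdm1a (lowest in rIgG CONTROL), Daxx and Morc3 (lowest in mIgG CONTROL). The ratio of the highest to the lowest group median was 2.88 for Ehmt2 (8.93 in rIgG CONTROL and 3.11 in TBP LOF), 2.07 for Trim28 (72.6 and 35.0) and 1.84 for Mphosph8 (51.3 in mIgG CONTROL and 27.8 in TBP LOF). It was smallest for Morc3, at 1.09 (34.1 and 31.2). For every factor the ranges of neighbouring groups in this order overlapped, and so did those of the highest and the lowest group.

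**Figure D5:**
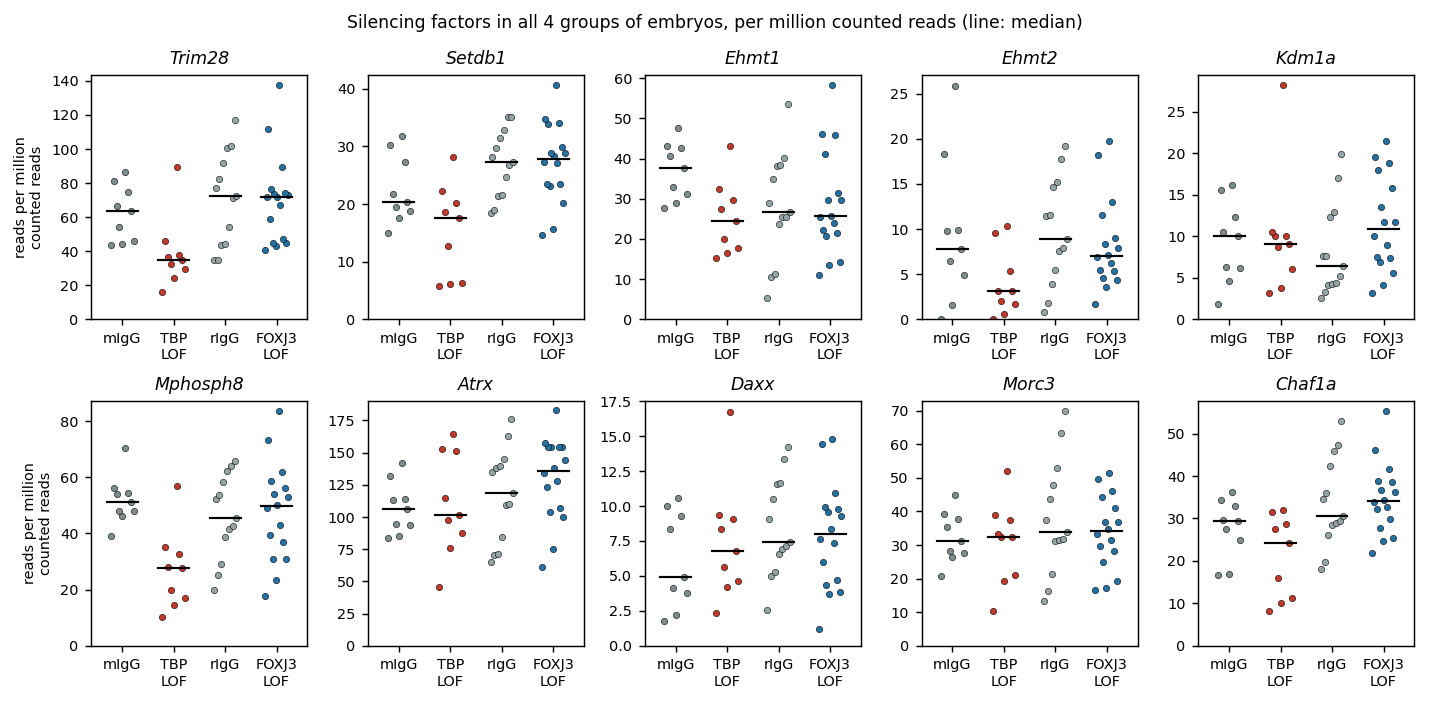
Levels in rpm of the 10 silencing factors in the 47 embryos by group (9 mIgG CONTROL, 9 TBP LOF, 13 rIgG CONTROL and 16 FOXJ3 LOF), with a line at each group median. The TBP LOF medians of Trim28 (35.0), Mphosph8 (27.8) and Ehmt2 (3.11) are the lowest of the 4 groups, and the group medians of Morc3 lie between 31.2 and 34.1.

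The spread between embryos of a group differed between the factors. In mIgG CONTROL embryos the coefficient of variation of the rpm was 16.7% for Mphosph8, 18.9% for Atrx and 19.1% for Ehmt1, and 86.6% for Ehmt2. It was higher in TBP LOF embryos for these 4 genes, at 52.2%, 36.0%, 35.8% and 93.1%. Over the 47 embryos, the gene with the most similar profile by Spearman correlation of log2(rpm + 1), among 9273 genes with at least 10 reads per embryo on average, was Rad21 for Trim28 (0.80), Armh3 for Setdb1 (0.75), Csnk1g1 for Ehmt1 (0.74), Bub3 for Chaf1a (0.74), Fmr1 for Atrx (0.73), Rrp15 for Mphosph8 (0.72), Ranbp3 for Morc3 (0.71), Fblim1 for Ehmt2 (0.69), E130218I03Rik for Kdm1a (0.60) and Klf17 for Daxx (0.54). The embryos share their group and library depth across genes, so that these values describe the profiles only.

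Partners of the silencing factors and genes of related pathways were followed in the same comparison. The latter are H3K9 demethylases, PRC1.6 repressors and other restriction factors. Of 93 such genes in 9 lists, 91 were tested, 44 were lower and 0 were higher (48.4% lower, median log2 fold change -0.82), with 0 higher also at an unadjusted p under 0.05. This share was near the 49.2% lower among well-counted features, and above the 29.7% over all features, whose median was -0.72. With TMM scaling the split was 14 lower and 11 higher, and the medians of 4 lists (H3K9 machinery, LSD1, ATRX with DAXX and H3.3, and SUMO) changed sign, to 0.01, 0.36, 0.08 and 0.07, while those of the other 5 stayed below 0. Upon FOXJ3 LOF 0 of 92 passed (edgeR), and 1 was lower and 7 were higher at an unadjusted p under 0.05.

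Among partners of the H3K9 machinery, 8 of 18 were lower (median -0.72). Smarcad1, a chromatin remodeller that binds TRIM28, had a fold change of -2.10 ± 0.35 on the log2 scale (padj = 3.73e-06), Cbx3, which encodes the H3K9me reader HP1γ, one of -1.90 ± 0.33 (padj = 6.71e-06), and Setdb2, a relative of Setdb1, one of -1.86 ± 0.34 (padj = 1.82e-05). With TMM scaling these remained lower (-1.18, -1.02 and -1.06), but 5 other members of the list, among them Cbx1 and Cbx5, the other HP1 genes, were then higher. In the HUSH group 3 of 4 tested partners of Mphosph8 were lower (median -1.37): Pphln1, which encodes periphilin, at -1.78 ± 0.32 (padj = 9.7e-06), Fam208a, which encodes TASOR, at -1.73 ± 0.42 (padj = 0.00077) and Morc2a at -1.01 ± 0.32 (padj = 0.0115). Pphln1 and Fam208a were lower with TMM scaling too (-0.99 each), whereas Morc2a was not called (-0.18).

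The LSD1 partners had the smallest median, -0.48, with 3 of 13 lower: the deacetylase Hdac1 (-0.82 ± 0.29, padj = 0.0258), Phf21a (-1.61 ± 0.49, padj = 0.00869) and Rcor2 (-1.11 ± 0.40, padj = 0.029). With TMM scaling 0 of the 13 were lower, 1 was higher and Hdac1 stood at 0.03. Of the ATRX, DAXX and H3.3 partners 6 of 11 were lower (median -0.75, and 0 of 11 lower and 1 higher with TMM scaling). H3f3a, which encodes histone H3.3, had 676 ± 295 normalised counts in TBP LOF and 1701 ± 456 in mIgG CONTROL embryos (SD, n = 9 each), a log2 fold change of -1.33 ± 0.30 (padj = 0.000372). H3f3b, which encodes the same protein and had more reads, was not called (2055 ± 845 against 3241 ± 1104, -0.66 ± 0.30, padj = 0.0904). Pml and Morc1 were lower from few reads, at -2.41 ± 0.75 (padj = 0.00979) and -2.15 ± 0.73 (padj = 0.0184).

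Of the CAF-1 partners 4 of 5 were lower (median -0.91, and 2 of 5 with TMM scaling). Chaf1b, the middle subunit, had 8.19 ± 4.03 normalised counts in TBP LOF and 43.3 ± 32.2 in mIgG CONTROL embryos, a log2 fold change of -2.46 ± 0.45 (padj = 1.43e-05), which passed with TMM scaling too (-1.62). Pcna, the replication clamp that binds CAF-1, stood at -1.43 ± 0.32 (padj = 0.000273) and the histone chaperone Nasp at -0.79 ± 0.28 (padj = 0.0262). In the SUMO pathway, through which TRIM28 recruits SETDB1, 7 of 16 genes were lower (median -0.71, and 2 lower with 4 higher under TMM), led by Sumo2 (-1.65 ± 0.32, padj = 4.59e-05) and the activating enzyme genes Uba2 (-1.45 ± 0.31, padj = 0.000154) and Sae1 (-1.30 ± 0.30, padj = 0.000584).

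The H3K9 demethylases have the opposite activity. Of these 5 of 7 were lower (median -1.67, and 3 of 7 with TMM scaling), with Kdm4c at -1.79 ± 0.32 (padj = 1.4e-05), Kdm3a at -1.67 ± 0.36 (padj = 0.000174) and Kdm3b at -1.88 ± 0.43 (padj = 0.000417). Of the PRC1.6 repressors of germline genes 4 of 9 were lower (median -1.02, and 1 of 9 with TMM scaling), with Mga at -1.75 ± 0.33 (padj = 2.49e-05), Pcgf6 at -1.28 ± 0.31 (padj = 0.000881) and L3mbtl2 at -1.02 ± 0.33 (padj = 0.0143). Of 8 other restriction factors tested 4 were lower (median -0.91, and 0 of 8 with TMM scaling): Hells, Samhd1, Apobec3 and Rif1, from -2.03 ± 0.78 for Apobec3 (padj = 0.0398) to -0.78 ± 0.30 for Rif1 (padj = 0.0433).

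The elements that these factors repress were examined beside them. Of 12 retrotransposon families set for the comparison 8 were tested, and 1 passed upon TBP LOF: IAPLTR1a_Mm, an LTR of the IAP class, which fell by 1.01 on the log2 scale (SE 0.36, padj = 0.0239) from 160 to 75.5 median normalised counts and was not called with TMM scaling (-0.21, padj = 0.646). Of all features tested 29.7% were lower in this comparison, and IAPLTR1a_Mm lay at the 40.7th percentile of their fold changes. On the ERCC scale 0 of the 8 families were higher (edgeR), none had a 95% interval wholly above 0, and the median over the 8 was -0.21. IAPEz-int, the internal part of IAP elements, stood at -0.56 ± 0.33 (padj = 0.212) and MMERVK10C-int at -0.29 ± 0.31 (padj = 0.540).

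MERVL-int had 4244 to 32346 normalised counts (median 9179) in TBP LOF and 12718 to 20499 (median 14383) in mIgG CONTROL embryos, with a log2 fold change of -0.13 ± 0.34 (padj = 0.825). MT2_Mm, its LTR, stood at 0.30 ± 0.36 (padj = 0.582). With TMM scaling MT2_Mm and RLTR10C were higher, at 1.04 (padj = 0.0079) and 0.84 (padj = 0.00415), and RLTR10C stood at 0.0058 on the ERCC scale. MERVL-int changed sign with TMM scaling, to 0.58 (padj = 0.103). Among the 8 families IAPEz-int (to 0.21), MMERVK10C-int (to 0.53), IAPLTR1_Mm (from -0.73 to 0.03) and L1MdTf_II (to 0.82) also changed sign, none of them called. The rows of L1MdA_I, L1MdA_II, L1MdTf_I and L1MdGf_I held 0 reads in all 49 embryos, and L1MdTf_II, which in the authors' modified annotation stands for the monomer repeats of this young LINE-1 family and not for whole elements, stood at -0.08 ± 0.45 (padj = 0.924). The tables list young LINE-1 also under other names, and of these, looked at after the rows at 0 were seen, L1Md_T, L1Md_A and L1Md_Gf stood at -0.45, -0.50 and -0.18 (padj from 0.242 to 0.805). Upon FOXJ3 LOF 0 of the 8 families passed (edgeR, padj from 0.839 to 0.984), IAPEz-int being the only one with an interval that left out 0 (-0.43, -0.81 to -0.05).

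The mRNAs of the depleted factors are given for reference. Tbp was lower upon TBP LOF, with 6.59 to 151 normalised counts (median 83.3) against 195 to 672 (median 280) and a log2 fold change of -2.14 ± 0.37 (padj = 5.26e-06), a larger change than that of any silencing factor. Foxj3 was not lower upon FOXJ3 LOF, with 230 to 466.1 normalised counts (median 290) against 123 to 333 (median 245) and a log2 fold change of 0.28 ± 0.13 (padj = 0.861).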

How the data were processed

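Single late 2-cell embryos were profiled by Smart-seq+5′, which keeps the 5′ ends of polyadenylated transcripts. Per the labels and the study's methods, the authors aligned reads with STAR 2.7.11a to GRCm38 and counted 5′ reads per gene and TE family with TEcount, giving the deposited estimated counts, in which multi-mapping reads are shared among TE copies and the values are whole numbers. Whether counting was by strand is not stated in these sources. The insertion-level tables of the TBP experiment were not used.

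From these counts, 42 TE subfamily rows were added to 6 families, gene symbols were assigned by Ensembl ID (54723 of 54838), and embryos with at least 500000 reads, at least 1000 genes, at most 10% mitochondrial and at most 15% ERCC reads were kept. Features with a read in at least 25% of the embryos were tested with edgeR 4.0.16 in R 4.3.3 (quasi-likelihood, Benjamini-Hochberg adjustment across every feature tested, threshold 0.05). The TBP comparison was scaled by the median ratios of 42 ERCC spike-ins, the FOXJ3 comparison by TMM with batch as covariate, and their difference by 41 spike-ins. Normalised counts are reads divided by the same factors, and the standard error is the fold change divided by the square root of the F statistic. On simulated counts with 200 features changed by 2 on the log2 scale, 90.5% (TBP, 18743 features), 99% (FOXJ3, 19049 features) and 57.5% (difference, 19313 features) were recovered. The changed features were drawn from those above the median count, equally up and down, and the scaling was taken as known. Every silencing factor changed by less than 2, so that these rates do not give the power for the factors. DESeq2 1.42.0, other scalings and filters, a mCherry-Trim21 covariate, a replicate block and leaving out each embryo were tried. Each member, Tbp, Foxj3, and up to 3 list genes per direction with the lowest adjusted p in the TBP comparison are named, and Rif1, H3f3b, Cbx1, Cbx5, Oosp1, Bmp15 and the L1Md rows were added after their values were seen. The silencing factors and gene lists were chosen with earlier results of these data known.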

Additional observations from a re-analysis of the deposited data

Results flagged for a closer look

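In a group of 9 embryos, 1 stood far from the rest in 3 of 20 groups examined (10 genes in each group of the TBP experiment), where chance would mark about 1 in 20 for normally distributed values. Counts need not follow that distribution and the genes share their embryos, so that 3 of 20 is not shown to exceed chance. These were TBP LOF embryo 10 for Kdm1a, with a normalised count of 43.4 and 20.6 in the next embryo, TBP LOF embryo 2 for Daxx, with 30.5 and 13.9 in the next, and mIgG CONTROL embryo 8 for Trim28, with 223 and 146 in the next. Without these embryos the log2 fold changes upon TBP LOF were -0.94 for Kdm1a and -0.64 for Daxx, neither called (padj = 0.115 and 0.370 in edgeR's quasi-likelihood test), and -1.18 for Trim28, still called (padj = 0.00365).

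For 6 genes the effect of TBP LOF differed from that of FOXJ3 LOF in the model of all embryos: the difference in log2 fold change was -1.50 for Trim28, -1.41 for Setdb1, -1.54 for Ehmt1, -1.79 for Ehmt2, -1.82 for Mphosph8 and -1.34 for Chaf1a. Of all 19657 features 28.0% were lower in this difference, and of the 8288 counted at least as well as the factors 49.4%, so that 6 of 10 was near the latter share. ERCC reads were a larger share in TBP LOF than in mIgG CONTROL embryos (4.29% and 2.76%) and a smaller one in FOXJ3 LOF than in rIgG CONTROL embryos (3.19% and 3.85%). Their part in these differences was not tested apart from the TMM fit, in which only Mphosph8 passed.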

How the results depend on the processing

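Upon TBP LOF the 6 calls were kept with the DESeq2 test, no filter on low counts, the embryos under the quality limits added, and the mCherry-Trim21 level as covariate. Of all features 21.8% to 30.4% were lower in these settings. The calls were reduced to 1, Mphosph8, by TMM scaling and by DESeq2 size factors on genes and TE families (12.7% and 12.6% of all features lower). The signs of Kdm1a, Atrx, Daxx and Morc3 were then reversed (0.30, 0.25, 0.48 and 0.16 with TMM, and 0.33, 0.26, 0.50 and 0.17 with DESeq2 size factors). With filterByExpr, which left Ehmt2 and Daxx untested, 5 of the 8 factors tested were lower, as were 53.1% of the 7839 features. Leaving out each embryo gave 5 to 6 calls and 5432 to 6162 called features.

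Same-numbered embryos did not deviate together (correlations of -0.05 to 0.12 over 7 pairs in the TBP and -0.20 to 0.28 over 12 pairs in the FOXJ3 experiment). 1 and 3 LOF embryos correlated best with their own number, so that the numbers were not taken as pairs. With the replicate block, 5 factors were lower upon TBP LOF (Ehmt2 at -1.27, padj = 0.127 by edgeR), and 4 without the block in the same embryos, a fit chosen after seeing the data. Of all features 23.6% were lower with the block and 23.0% without it.

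Upon FOXJ3 LOF 0 factors were called in every setting tried. The 2 called features became 4 with the DESeq2 test and with no filter, 3 with no batch term, and 1 with filterByExpr and in batch 2 alone. They became 0 in batch 1 alone, with the covariate, with the replicate block and without it in the same embryos, and 1 to 4 when an embryo was left out. Signs near 0 were reversed for Ehmt2, Daxx and Morc3 with ERCC size factors (0.0347, 0.14 and 0.14), for Atrx, Morc3 and Chaf1a in batch 1 alone (-0.0204, 0.19 and -0.10), for Trim28, Setdb1 and Daxx in batch 2 alone (-0.23, -0.0711 and 0.21), for Daxx, Morc3 and Chaf1a with the covariate (0.11, 0.12 and -0.0187), and for Ehmt2 and Morc3 with the replicate block (0.0372 and 0.00297). Leaving out an embryo moved Trim28 over -0.0159 to 0.11, Daxx over -0.19 to 0.0186 and Morc3 over -0.14 to 0.0138.

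In the difference between the depletions, TMM scaling left 1 call and reversed Atrx, Daxx and Morc3 (0.0485, 0.53 and 0.24). The DESeq2 test and filterByExpr added Atrx (padj = 0.0401 and 0.042), and FOXJ3 batch 1 alone lost Chaf1a (-1.17, padj = 0.0744). The causes of these changes were not tested. The factors with the fewest reads over the 18 embryos of the TBP experiment were Ehmt2, Daxx and Kdm1a (222, 241 and 371), with the widest standard errors (0.57, 0.48 and 0.45).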
